A study of Mus musculus with 17 samples.

Results

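The recovery of hematopoietic stem and progenitor cells (HSPC) after lipopolysaccharide (LPS, an inflammatory outer-membrane molecule of bacteria) was followed by comparing 3 bone marrow libraries taken 72 h after the injection with 3 taken 24 h after it. These 6 libraries were chosen by their sample titles from 17 in the series. Each was made from polyadenylated RNA of sorted HSPC, immature blood-forming cells, harvested from the marrow of wild-type C57BL/6J mice, an inbred laboratory strain. The LPS was given into the peritoneal cavity, without any antibody in these groups. The other libraries were 5 from mice given phosphate-buffered saline (PBS, titled day 0) and 3 at each time from mice given LPS and an antibody blocking IL-10R, the receptor for the anti-inflammatory cytokine interleukin-10. For the doses, 5 of LPS and 100 of antibody, the series text has micrograms and the sample protocols milligrams. Age, sex, the surface markers of the gate and whether a library is 1 mouse or a pool are not given in the sources used here. The p-values therefore measure the spread between libraries, which may in part be technical. That spread was estimated from all 17 libraries together, so the groups not compared also enter it.

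The 6 libraries held 10990583 to 16006001 counts, and 16431 to 17702 genes were detected in each. LPS library 1 at 24 h stood apart, with the fewest genes detected and a scaling factor of 0.799 against 0.980 to 1.04 in the other 5. Many of the results that rest on it are given with and without it. The labelled cell type was checked on 10 markers of immature hematopoietic cells, all detected at both times. Their summed level was 1061 to 1194 CPM (counts scaled to a common library size) at 24 h, 1764 to 2298 CPM at 72 h and 1679 to 2435 CPM with PBS. The transcripts of the stem cell factor receptor Kit were at 228, 292 and 352 CPM at 24 h and 347, 295 and 359.8 CPM at 72 h. These ranges overlapped, and Kit did not pass the test (log2 change 0.20, SE 0.27, edgeR adjusted p = 0.605).

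LPS is sensed through Toll-like receptor 4, and infection or LPS pushes normally resting stem cells into growth and toward myeloid output, while lymphoid output is curtailed. Growing cells make more ribosomes, amino acids and nucleotides. The transcription factor MYC drives many of the genes for this and binds the E-box CACGTG. The factor ATF4 drives genes of amino acid uptake and synthesis and of transfer RNA charging through a composite element with C/EBP proteins, whose core is TGATGNAA.

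Stretches of promoter that hold these letters are shown first, to let the letters be seen beside the changes of genes that these factors are known to drive. RefSeq promoters (build GRCm38.p6, 250 bases before to 50 bases after each start) were found for 10906 of the 14920 genes tested. Both strands were searched, CACGTG is its own reverse complement, and neither motif can hold the other. TGATGNAA was present in 2.85% of these promoters, in 8 of 27 promoters found for a list of 31 tested ATF4 and amino acid genes, and in 5 of 13 promoters found for 20 cytosolic transfer RNA synthetases. Each line gives up to 20 bases on either side of the match nearest to the start and ends at the start at the latest. It is read 5′ to 3′ along the gene, with that match in capitals (TTNCATCA is the same motif on the other strand). The first 6 genes were called lower at 72 h, Chac1 at -1.74 and Slc7a11 at -2.25 on the log2 scale and the others as given below. Atf3 was not called, and neither were Pycr1 (-0.21), Vldlr (0.29) and Nupr1 (-1.23), which also hold the motif in their promoters, so that the letters were found in genes with and without a called change. The stretches lie at chr6:7693210-7693252, minus strand (Asns), chr2:119351029-119351076, plus strand (Chac1), chr3:50443633-50443680, minus strand (Slc7a11), chr8:111033710-111033757, plus strand (Aars), chr6:55037951-55037998, plus strand (Gars), chr15:11399659-11399693, minus strand (Tars) and chr1:191183416-191183463, minus strand (Atf3).
Asns: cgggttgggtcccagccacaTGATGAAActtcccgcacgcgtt
Chac1: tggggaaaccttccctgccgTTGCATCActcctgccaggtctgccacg
Slc7a11: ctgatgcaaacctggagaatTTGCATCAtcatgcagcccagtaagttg
Aars: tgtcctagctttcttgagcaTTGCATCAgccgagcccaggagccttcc
Gars: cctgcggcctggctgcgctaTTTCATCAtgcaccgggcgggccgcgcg
Tars: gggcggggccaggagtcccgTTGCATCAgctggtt
Atf3: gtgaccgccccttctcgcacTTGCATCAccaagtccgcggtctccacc

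CACGTG was present in 11.5% of all promoters found, in 15.3% of those of genes called lower at 72 h and in 9.32% of those of genes called higher. Among the 15 genes with the greatest named decrease, 12 had a promoter and 6 held CACGTG. Among the 15 with the greatest increase, 13 had a promoter and 1 held it. The share for TGATGNAA was 2.21% in genes called lower and 3.65% in genes called higher. These shares are descriptions of letters within a window and say nothing about binding. The matches nearest to the start in 5 of the 6 decreased genes lie at chr1:55088298-55088343, minus strand (Hspd1), chr7:46845736-46845781, plus strand (Ldha), chr3:104638444-104638489, plus strand (Slc16a1), chr10:61648461-61648506, plus strand (Ppa1) and chr5:149636316-149636354, minus strand (Hsph1).
Hspd1: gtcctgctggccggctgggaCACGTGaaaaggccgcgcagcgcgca
Ldha: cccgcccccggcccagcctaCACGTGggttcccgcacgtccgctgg
Slc16a1: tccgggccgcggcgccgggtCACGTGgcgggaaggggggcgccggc
Ppa1: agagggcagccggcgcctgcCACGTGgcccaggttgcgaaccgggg
Hsph1: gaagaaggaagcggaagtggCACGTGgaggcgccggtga

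Transcripts of biosynthesis were lower at 72 h than at 24 h, and most transcripts of lymphoid priming and MHC class II, 13 of 34 of self-renewal, and Il10ra and Il10rb of the IL-10 receptor, were higher. Of 14920 genes tested, 4646 (31.1%) had an adjusted p below 0.05 in edgeR's quasi-likelihood test and are named called here. Of these, 2192 (14.7% of the genes tested) were higher and 2454 (16.4%) lower at 72 h. Thus 47.2% of the calls were higher, against 59.2% of 4702 calls with upper-quartile scaling, under which the median change over all genes was 0.13 on the log2 scale in place of 0.02. For 6780 genes (45.4%) every 72 h library lay on 1 side of all 24 h libraries. A change of 2-fold or more was seen in 1984 of the called genes, 1281 of them higher and 703 lower. Leaving out 1 of the 6 libraries left 3199 to 4507 calls, with 3489 when 24 h library 1 was left out.

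**Figure D1:**
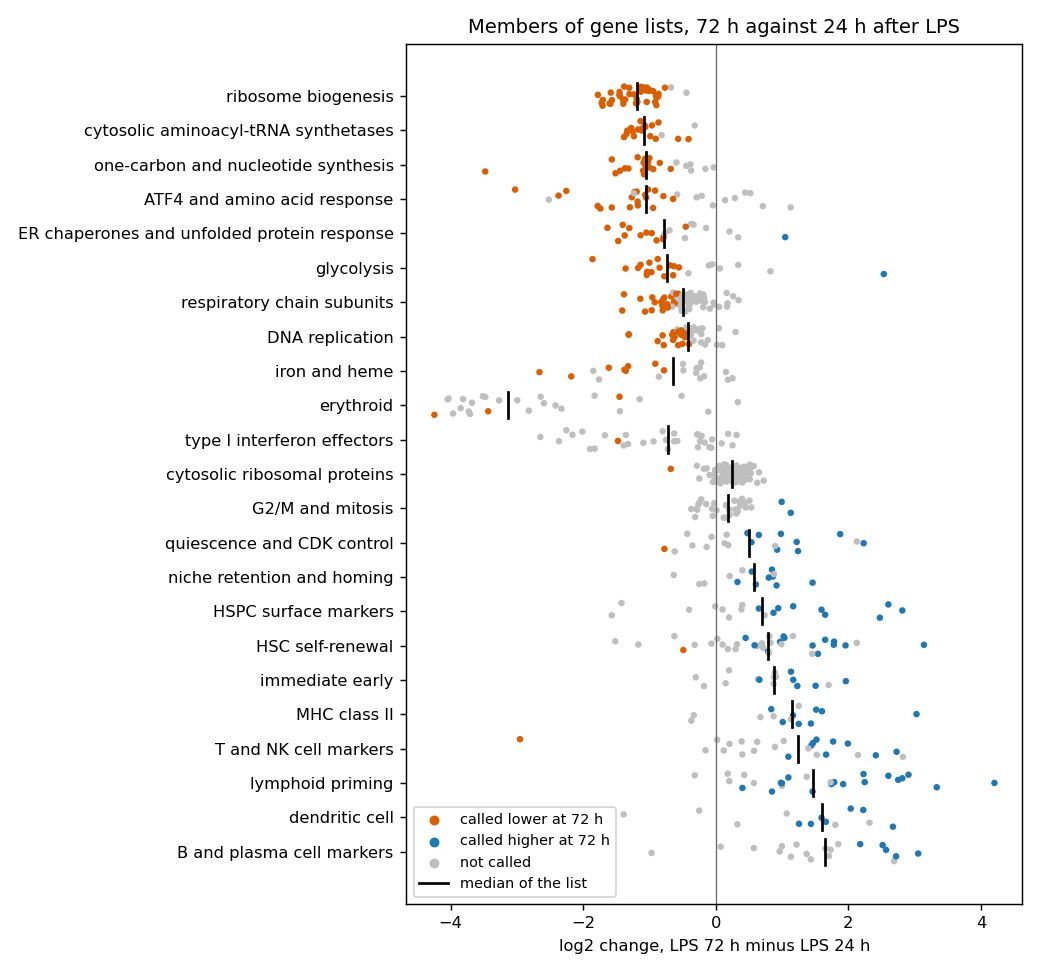
Log2 change between 24 h and 72 h after LPS (horizontal axis) of each tested member of 23 gene lists (rows), with the median of a list as a black bar and calls at an adjusted p below 0.05 in color. The upper lists, such as ribosome biogenesis (38 of 40 called lower), lie left of 0, and the lower lists, such as lymphoid priming (17 of 25 called higher), lie right of it.

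Genes of polyamine synthesis and protein folding were among the 15 greatest named decreases. Ornithine decarboxylase, the first enzyme of polyamine synthesis, is encoded by Odc1 (chr12:17544794-17551505 in GRCm38, GENCODE vM21). Its level was 904, 495 and 602 CPM in the 3 libraries at 24 h and 149, 167 and 136 CPM at 72 h (log2 change -2.15, SE 0.27, edgeR adjusted p = 0.000167). The groups were thus far apart, and the 72 h libraries lay close together. Srm, encoding spermidine synthase of the same pathway, was at 551, 248 and 312 CPM and then at 86.6, 88 and 77.2 CPM (log2 change -2.14, SE 0.35, edgeR adjusted p = 0.000519). Hspd1, encoding the mitochondrial chaperonin HSP60, fell from 1827, 1145 and 1164 CPM to 338, 382 and 350.1 CPM (log2 change -1.95, SE 0.27, edgeR adjusted p = 0.00023). For Odc1, Srm and Hspd1 library 1 was the highest at 24 h, and the groups did not overlap. Hsph1, encoding a cytosolic HSP110 chaperone, changed by -1.82 (SE 0.35) and Ndufaf4, encoding an assembly factor of respiratory complex I, by -1.91 (SE 0.22) on the log2 scale. Ppa1, encoding the cytosolic pyrophosphatase, changed by -1.82 (SE 0.26). Tuba8, encoding a tubulin, was at 70.0, 22.1 and 38.1 CPM and then at 10.2, 9.21 and 5.41 CPM (log2 change -2.39, SE 0.51, edgeR adjusted p = 0.00295). Among the genes of greatest decrease, Spire1, encoding an actin nucleator, lost its call without 72 h library 2 (adjusted p = 0.0535). C1qtnf12, Cpa3 and Septin8 each lost it without 5 of the 6 libraries in turn, all but 24 h library 2. Their adjusted p-values without 24 h library 1 were 0.107, 0.141 and 0.0512.

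Ribosome production genes fell almost throughout. Of 40 genes that make, process or assemble ribosomal RNA, 38 were called lower and 0 higher, with a median log2 change of -1.19 against 0.02 over all genes. The exceptions were Nop10 and Imp3, at -0.68 and -0.44. Between 38 and 39 members were called lower when any 1 library was left out. Ncl, encoding the abundant nucleolar protein nucleolin, was at 4339, 3099 and 3176 CPM at 24 h and 1301, 1323 and 1259 CPM at 72 h (log2 change -1.45, SE 0.17, edgeR adjusted p = 0.000149). With PBS it was at 1543 ± 196 CPM (SD, n = 5). The 24 h libraries were thus the high ones, and the 72 h libraries lay close together, below every PBS library. Nolc1, which chaperones small nucleolar particles, fell from 529, 390.4 and 520 CPM to 139, 141 and 161 CPM (log2 change -1.71, SE 0.20, edgeR adjusted p = 0.000152). Pno1, needed for the small subunit, fell from 126, 106 and 119 CPM to 32.7, 39.5 and 35.7 CPM (log2 change -1.70, SE 0.21, edgeR adjusted p = 0.000152). Polr1b, a subunit of RNA polymerase I, which transcribes the ribosomal RNA, changed by -1.37 (SE 0.17). These groups did not overlap.

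Transcripts of the ribosomal proteins themselves gave few calls. Of 78 genes for proteins of the cytosolic ribosome, 1 was called lower and 77 were not called (4 had an unadjusted p below 0.05), and their median log2 change was 0.25. That count rested on 1 library. Relative to PBS, the mean log2 level of these genes was 0.83 in 24 h library 1, -0.16 in library 2 and -0.03 in library 3, and at 72 h it was 0.76, 0.65 and 0.01. Without 24 h library 1, 46 were called higher and 1 lower, and the median was 0.64. Without 72 h library 3, 5 were called higher. With voom and sample quality weights the count was 63 higher and 1 lower. The gene called lower was Rps2, at 3436, 2732 and 2797 CPM and then 2097, 2070 and 1437 CPM (log2 change -0.68, SE 0.18, edgeR adjusted p = 0.0095). Ribosomal protein genes have many pseudogenes, so their counts are uncertain.

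**Figure D2:**
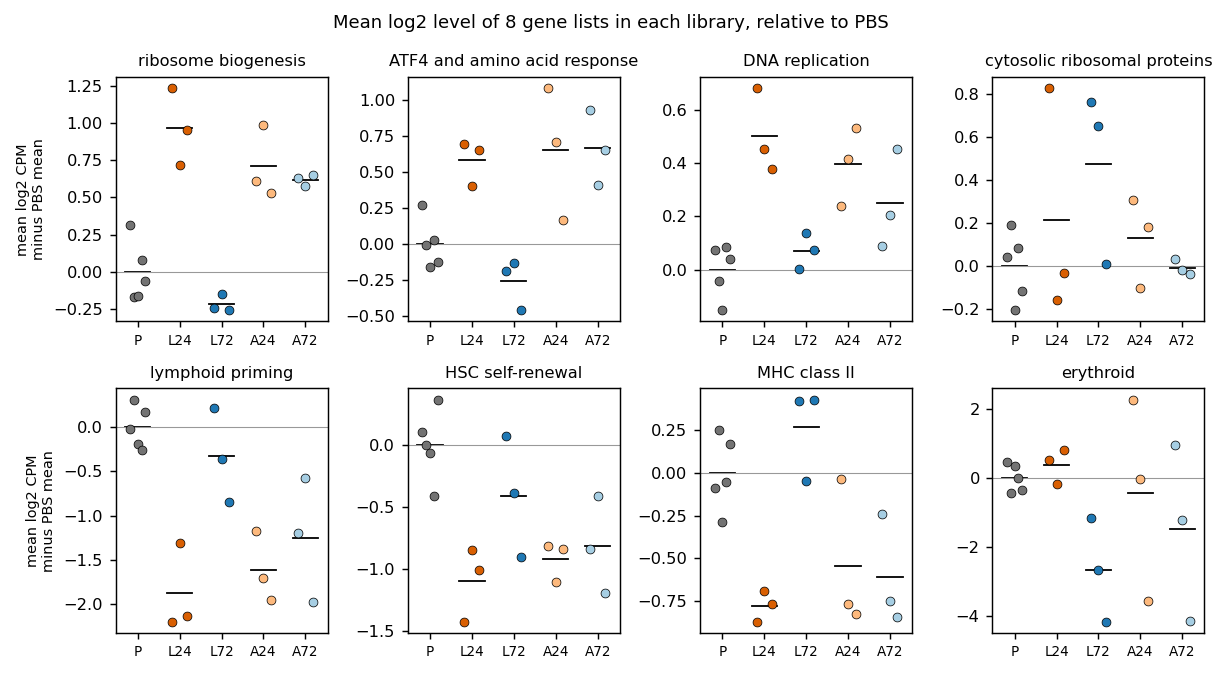
Mean log2 CPM of the members of 8 gene lists in each library, minus the mean of the PBS libraries (vertical axis), for PBS (P), LPS at 24 h (L24) and 72 h (L72) and LPS with antibody at 24 h (A24) and 72 h (A72), with a bar at the group mean. For ribosome biogenesis the 72 h LPS libraries (-0.26 to -0.15) lie below the 24 h LPS libraries (0.72 to 1.23), whereas ribosomal proteins span -0.16 to 0.83 at 24 h.

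Transfer RNA charging and amino acid supply fell with ribosome production. Of 20 cytosolic transfer RNA synthetases, which load amino acids onto their transfer RNAs, 18 were called lower and 0 higher, with a median of -1.09. Wars and Vars were not called, at -0.82 and -0.32. Gars, the glycine enzyme whose promoter is shown above, was at 349, 250.3 and 279 CPM at 24 h and 113, 120.4 and 115 CPM at 72 h (log2 change -1.33, SE 0.15, edgeR adjusted p = 0.000149). Tars, the threonine enzyme, was at 195, 149 and 178 CPM and then at 73.4, 72.6 and 73.3 CPM (log2 change -1.25, SE 0.15, edgeR adjusted p = 0.00015). The 72 h values of both were tighter than the 24 h values. Nars and Aars, for asparagine and alanine, changed by -1.27 and -1.17.

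Of the 31 ATF4 and amino acid genes, 19 were called lower and 0 higher, with a median of -1.05. Without 24 h library 1 the count was 14 lower and 0 higher. Asns makes asparagine (chr6:7675169-7693254). It was at 112, 63.6 and 91.7 CPM at 24 h, 14.4, 27.1 and 10.3 CPM at 72 h and 30.9 ± 7.14 CPM (SD, n = 5) with PBS (log2 change -2.37, SE 0.43, edgeR adjusted p = 0.000959). Library 2 was the lowest at 24 h and the highest at 72 h, and the groups still did not overlap. Slc7a5 and Slc3a2 encode the chains of a transporter of large neutral amino acids. Slc7a5 fell from 292, 257 and 294 CPM to 76.5, 77.3 and 91.5 CPM (log2 change -1.78, SE 0.21, edgeR adjusted p = 0.000149), and Slc3a2 changed by -1.18 (SE 0.18). Psat1, of serine synthesis, fell from 390.5, 292 and 318 CPM to 127, 153 and 136 CPM, and Aldh18a1, of proline synthesis, changed by -1.29 (SE 0.15). Not every gene of the list moved this way. The stress genes Ddit3, Trib3, Atf3 and Ppp1r15a were not called, at -0.04, 0.52, 0.71 and 1.13. Atf4 itself was at 419.7, 194 and 306 CPM and then at 174, 183 and 121 CPM (log2 change -0.94, SE 0.25, edgeR adjusted p = 0.0102), and without 24 h library 1 it missed the threshold (log2 change -0.64, adjusted p = 0.0694).

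One-carbon and nucleotide synthesis, the supply of purines and pyrimidines, had 19 of 25 genes called lower and 0 higher, with a median of -1.05. The most decreased member was the mitochondrial folate enzyme Aldh1l2, at -3.48 (SE 0.92). Mthfd1, a folate enzyme, fell from 339, 267 and 303 CPM to 115, 117 and 119 CPM (log2 change -1.37, SE 0.16, edgeR adjusted p = 0.000149). Gmps, which makes guanosine monophosphate, fell from 249, 219 and 189.6 CPM to 100.2, 107 and 109.7 CPM (log2 change -1.05, SE 0.12, edgeR adjusted p = 0.000149). Ppat, the first enzyme of purine synthesis, was at 159.5, 159 and 159 CPM in the 24 h libraries and 71.9, 77.8 and 73.7 CPM in the 72 h libraries, a closely matched set at each time. The purine enzyme Paics was not called, at -0.03.

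Energy and protein folding genes moved less evenly. In glycolysis 15 of 22 genes were called lower and 1 higher, with a median of -0.73. The count was 10 lower and 1 higher without 24 h library 1 or 72 h library 1. Ldha, encoding a lactate dehydrogenase chain, fell from 2712, 1576 and 1811 CPM to 551, 636 and 494 CPM (log2 change -1.86, SE 0.24, edgeR adjusted p = 0.000168). Slc16a1, encoding a lactate transporter, changed by -1.87 (SE 0.25). The exception was the aldolase Aldoc, at 0.927, 1.85 and 0.702 CPM and then 10.3, 6.0 and 4.17 CPM (log2 change 2.53, SE 0.44, edgeR adjusted p = 0.000738). Of 21 endoplasmic reticulum chaperones and unfolded protein response genes, 12 were called lower and 1 higher. Hspa5, encoding the chaperone BiP, fell from 2154, 1565 and 1910 CPM to 582, 728 and 719 CPM (log2 change -1.47, SE 0.31, edgeR adjusted p = 0.00265). Without 24 h library 1 only 7 of that list were lower and 0 higher, and without 72 h library 1 there were 7 lower and 1 higher. Of 67 respiratory chain subunits, 20 were called lower and 0 higher. Without 24 h library 1 the count was 10 lower and 5 higher, and the median was -0.06 in place of -0.49.

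Myc itself, encoding the growth factor-responsive regulator MYC, was at 424, 321 and 481 CPM at 24 h and 217, 219 and 232 CPM at 72 h (log2 change -0.88, SE 0.23, edgeR adjusted p = 0.00869). The 72 h libraries were low and close together. In its network of 12 genes 5 were called higher and 1, Myc itself, lower. Mxd4, encoding a repressor that competes with MYC for its partner MAX, rose from 23.6, 35.6 and 29 CPM to 118, 112 and 92.3 CPM (log2 change 1.87, SE 0.25, edgeR adjusted p = 0.000192). Mycl, a relative of Myc, rose from 1.67, 6.39 and 1.85 CPM to 22.9, 17.1 and 30.1 CPM (log2 change 2.81, SE 0.51, edgeR adjusted p = 0.00109). The count was 2 higher and 1 lower without 24 h library 3, without 72 h library 1 or without 72 h library 3.

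The cell cycle lists split. Of 41 DNA replication genes 22 were called lower and 0 higher, with a median of -0.42. That number was 8 without 24 h library 1, 10 without 72 h library 1, 14 without 72 h library 2 or 72 h library 3, and 11 with upper-quartile scaling. Orc1, of the origin recognition complex, fell from 37.5, 31.7 and 39.4 CPM to 12.8, 15.4 and 15.5 CPM (log2 change -1.31, SE 0.15, edgeR adjusted p = 0.000149). Ccne1, encoding the cyclin that starts replication, was at 52.6, 38.6 and 33.4 CPM and then at 13.7, 16.1 and 20.1 CPM (log2 change -1.31, SE 0.27, edgeR adjusted p = 0.00234). Mcm2, of the replicative helicase, changed by -0.78 (SE 0.14). Of 30 G2/M and mitosis genes 28 were not called and 2 were higher, a number that changed with single libraries. It was 1 without 24 h library 1, 24 h library 3 or 72 h library 2, and 0 without 72 h library 3. The proliferation marker Mki67 was at 467, 755 and 652 CPM and then at 658, 726 and 1334 CPM (log2 change 0.54, SE 0.25, edgeR adjusted p = 0.109). Its groups overlapped, with 72 h library 3 the highest.

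Some genes that hold cells at rest were higher. Of 20 quiescence and cyclin-dependent kinase control genes, 9 were called higher and 1, Ccng1, lower. Without 24 h library 3 the count was 5 higher and 1 lower. Cdkn1b, encoding the kinase inhibitor p27, rose from 16.2, 29.4 and 22.7 CPM to 50.3, 58.2 and 51 CPM (log2 change 1.22, SE 0.24, edgeR adjusted p = 0.00164). Btg2, an antiproliferative gene, rose from 10.5, 14.5 and 12.7 CPM to 49.9, 48.3 and 40.5 CPM (log2 change 1.88, SE 0.25, edgeR adjusted p = 0.000186). The atypical cyclin gene Ccng2 rose from 9.92, 24.4 and 13.2 CPM to 65.2, 72.6 and 86 CPM, and Foxo3 changed by 0.65 (SE 0.15). The 72 h libraries were above all 24 h libraries in each of these 4 genes. Cdkn1a, encoding p21, was not called, at -0.14.

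**Figure D3:**
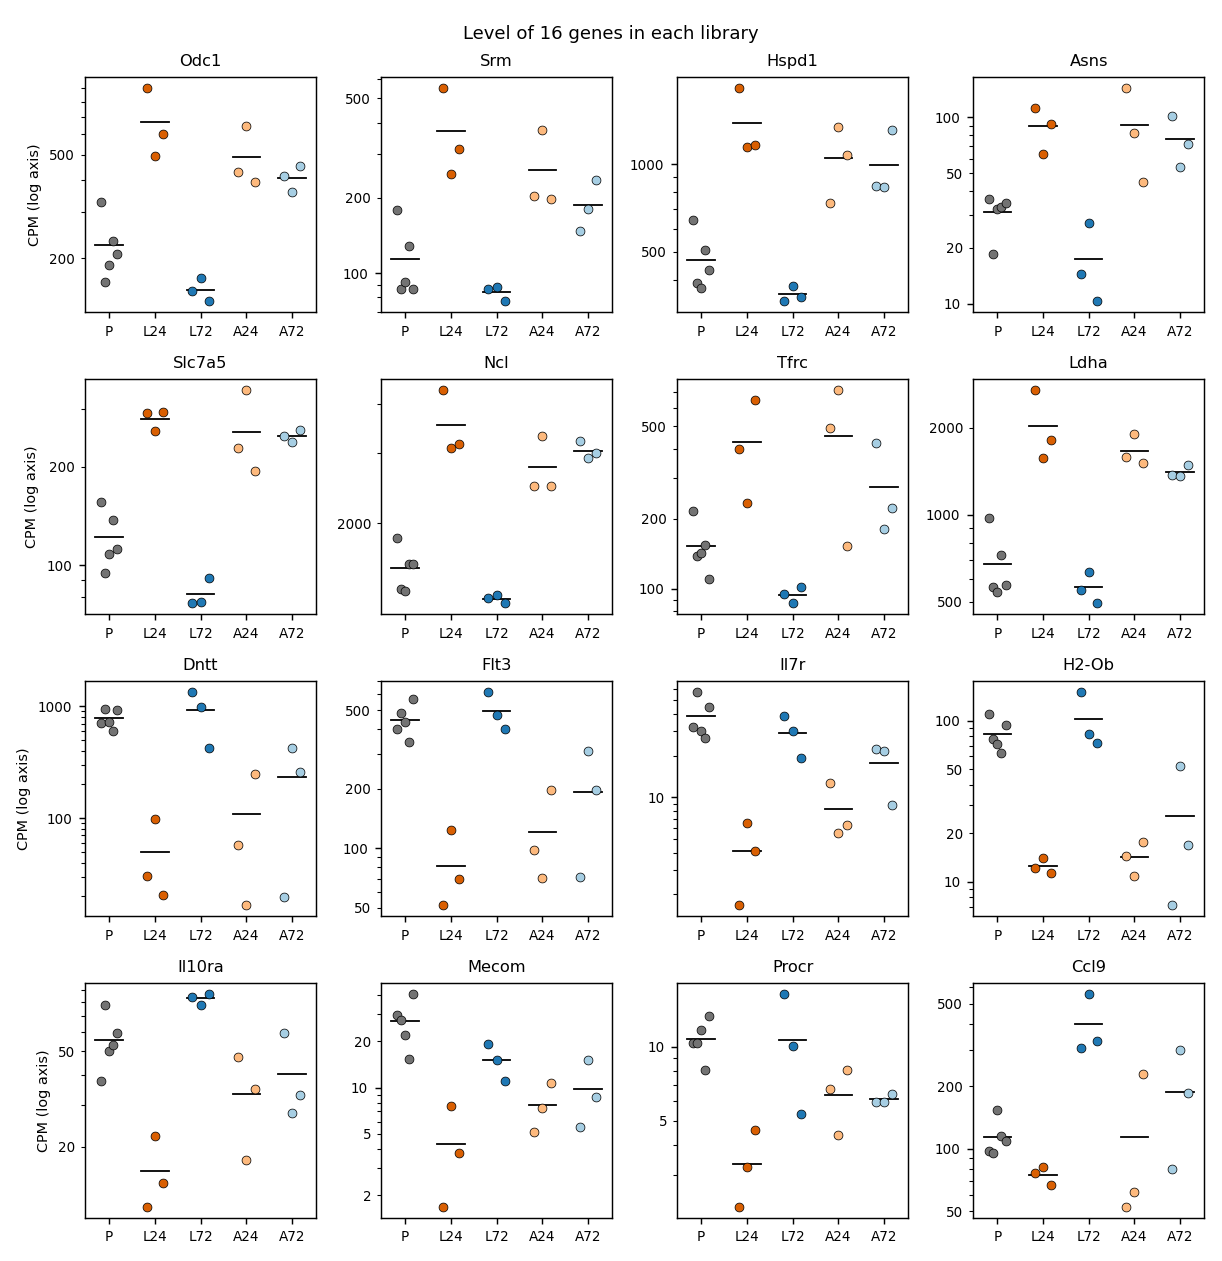
CPM (log axis) of 16 genes in each library, for PBS (P), LPS at 24 h (L24) and 72 h (L72) and LPS with antibody at 24 h (A24) and 72 h (A72), with a bar at the group mean. In every panel the L72 points lie on one side of the L24 points, below them for genes such as Odc1 and Tfrc and above them for genes such as Dntt and Il10ra.

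Early lymphoid genes were among the greatest increases. Of 25 lymphoid priming genes, 17 were called higher and 0 lower, with a median of 1.46. The number called was 11 without 24 h library 1, and 10 without 24 h library 3 or 72 h library 1. Dntt encodes terminal transferase, which adds bases at antigen receptor joints (chr19:41029275-41059525). It was at 30.5, 98.7 and 20.5 CPM at 24 h, 1354, 988 and 421 CPM at 72 h and 783 ± 149.7 CPM (SD, n = 5) with PBS (log2 change 4.20, SE 1.02, edgeR adjusted p = 0.00618). The 24 h and the 72 h libraries both spread widely, and the lowest 72 h library was still far above the highest at 24 h. Flt3 encodes the receptor that marks multipotent and lymphoid progenitors (chr5:147330741-147400489). It rose from 51.5, 123 and 70.1 CPM to 619, 472 and 399 CPM (log2 change 2.60, SE 0.48, edgeR adjusted p = 0.00109). Il7r, encoding the interleukin-7 receptor chain that lymphoid progenitors need, rose from 1.67, 6.52 and 4.08 CPM to 38.8, 29.8 and 19.1 CPM (log2 change 2.81, SE 0.49, edgeR adjusted p = 0.000837). In all 3 genes the groups did not overlap. Notch1, the receptor that directs T lineage choice, changed by 1.75 (SE 0.28), and Satb1, encoding a chromatin organizer, by 1.79 (SE 0.31). Lsp1, encoding a leukocyte actin-binding protein, rose from 70.4, 90.6 and 68.4 CPM to 441, 304 and 329.9 CPM (log2 change 2.23, SE 0.24, edgeR adjusted p = 0.000149). Rag1, of the antigen receptor recombinase, was at 1.85, 10.7 and 3.25 CPM and then at 38.1, 28.9 and 9.0 CPM with overlap (log2 change 2.25, SE 0.80, edgeR adjusted p = 0.0427). Its adjusted p was 0.138 without 24 h library 1 or 24 h library 3, 0.140 without 72 h library 1 and 0.0903 without 72 h library 2.

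Markers of mature lymphocytes were read beside these genes. The summed level of 9 B and plasma cell markers was 73.5 to 97.2 CPM at 24 h and 151 to 414 CPM at 72 h, against 399 to 1362 CPM with PBS, with 2 of 9 called higher and all 9 detected at both times. The sum of 8 T and NK cell markers was 112 to 277 CPM and then 172 to 264 CPM, which overlapped, with 2 of 8 called higher. Nkg7 made up most of each sum, at 246, 102 and 97.2 CPM and then 166, 203 and 145 CPM. Lck and Zap70 were higher in every 72 h library than in any 24 h library, and the Cd3 genes, Ncr1 and Gzma overlapped. The part of mature lymphocytes in the changes of lymphoid genes was not tested. In bulk libraries, fewer cells of a type and less RNA per cell cannot be told apart. In a longer list of 19 tested B and plasma cell genes, some of which are also lymphoid priming genes, 5 were called higher and 0 lower. The number was 2 without 24 h library 1, 3 without 24 h library 2, 1 without 24 h library 3 and 2 without 72 h library 1. Sdc1, encoding the plasma cell surface proteoglycan CD138, rose from 7.6, 13.7 and 6.44 CPM to 82.2, 55.4 and 45.5 CPM (log2 change 2.72, SE 0.52, edgeR adjusted p = 0.00143). Jchain, encoding the joining chain of secreted antibodies, was at 19, 24.6 and 33 CPM and then at 236, 108 and 95.8 CPM (log2 change 2.52, SE 0.86, edgeR adjusted p = 0.0363). Its adjusted p was 0.112, 0.0849 and 0.0725 without 24 h libraries 1, 2 and 3 and 0.127 without 72 h library 1. Of 24 T and NK cell genes 9 were called higher and 1, Gzmb, lower. The calls numbered 6 without 24 h library 1, 2 without 24 h library 3 and 1 without 72 h library 1, all higher. Gzmb, encoding a killer cell protease, was called at -2.95 (SE 1.08), and it was called in leave-one-out fits without 24 h library 2 but in none of the other 5.

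**Figure D4:**
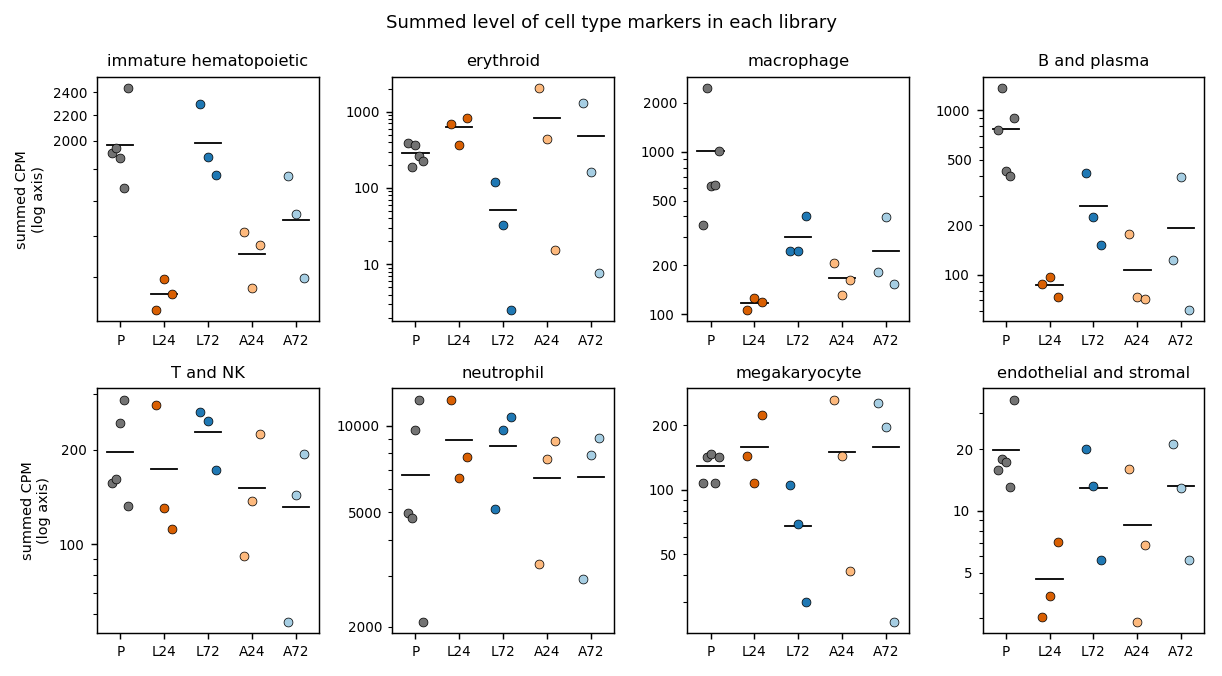
Summed CPM (log axis) of cell type markers in each library, for PBS (P), LPS at 24 h (L24) and 72 h (L72) and LPS with antibody at 24 h (A24) and 72 h (A72), with a bar at the group mean. Immature hematopoietic markers are higher at L72 (1764 to 2298 CPM) than at L24 (1061 to 1194 CPM), and erythroid markers are lower (2.48 to 121 CPM against 364 to 822 CPM).

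Stem cell genes were partly higher, with wide spread among the 72 h libraries. Of 34 self-renewal genes, 13 were called higher and 1, Bmi1, lower, with a median of 0.80. The count was 8 higher and 1 lower without 24 h library 1 and 7 higher and 1 lower without 72 h library 1, and Bmi1 was not called without 24 h library 2. Mecom, encoding a zinc finger factor required by stem cells, was at 1.67, 7.55 and 3.76 CPM at 24 h and 19.1, 15 and 11.1 CPM at 72 h, against 27 ± 9.54 CPM (SD, n = 5) with PBS (log2 change 1.78, SE 0.49, edgeR adjusted p = 0.0124). Without 24 h library 3 its adjusted p was 0.0501. Procr, encoding the surface marker EPCR, was at 2.23, 3.23 and 4.59 CPM and then at 16.5, 10.1 and 5.34 CPM (log2 change 1.65, SE 0.36, edgeR adjusted p = 0.00339). In both genes 72 h library 1 was the highest and 72 h library 3 the lowest, and the groups did not overlap. Robo4, encoding a receptor of stem cells and vessels, rose from 0.464, 2.68 and 1.79 CPM to 22.9, 12.1 and 9.73 CPM (log2 change 3.14, SE 0.60, edgeR adjusted p = 0.00144). Hoxa7, a homeobox gene, rose from 17.7, 20.9 and 15.6 CPM to 39.3, 40.4 and 31.4 CPM (log2 change 1.04, SE 0.21, edgeR adjusted p = 0.00194), and Nkx2-3, another, changed by 1.96 (SE 0.42). Hlf was called at 1.54 (SE 0.51), and its adjusted p was 0.110 without 24 h library 1, 0.101 without 24 h library 3 and 0.137 without 72 h library 1. Meis1 was called at 0.97, with an adjusted p of 0.0625 without 72 h library 1.

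Among 18 surface markers of HSPC 9 were called higher and 0 lower. Cd34 rose from 364, 454 and 377 CPM to 848, 747 and 705 CPM (log2 change 0.94, SE 0.24, edgeR adjusted p = 0.009), and Cd93, a marker of early progenitors, rose from 127, 269.9 and 168 CPM to 526, 490.1 and 692 CPM (log2 change 1.60, SE 0.30, edgeR adjusted p = 0.00119). Ly6a, which encodes Sca-1 and answers to interferon, was at 222, 108 and 156 CPM and then at 86.4, 59.2 and 36.3 CPM. Its groups did not overlap, and it did not pass (log2 change -1.42, SE 0.79, edgeR adjusted p = 0.184). In a fit of the 6 libraries alone it was called lower (edgeR adjusted p = 0.0201), so its call depended on the fit. Slamf1, encoding the stem cell marker CD150, was also not called, at 2.23, 2.68 and 2.62 CPM and 4.12, 3.3 and 0.731 CPM.

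Of 14 genes for retention and homing in the marrow 8 were called higher and 0 lower. That number was 3 without 24 h library 1 or 72 h library 1, 4 without 72 h library 3, and 5 without 24 h library 2 or 24 h library 3. Selplg, encoding the adhesion ligand PSGL-1, rose from 184, 212 and 161 CPM to 356, 285 and 372 CPM (log2 change 0.86, SE 0.17, edgeR adjusted p = 0.00174). Of 16 immediate early genes 6 were called higher and 0 lower, and 3 without 24 h library 1 or 72 h library 1. Zfp36, encoding a protein that destabilizes cytokine messenger RNA, was at 33.3, 38.9 and 45.9 CPM and then at 264, 112 and 85.9 CPM (log2 change 1.96, SE 0.34, edgeR adjusted p = 0.000803), with 72 h library 1 the highest.

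Most genes of antigen presentation by MHC class II were higher. Of 14 genes 8 were called higher and 0 lower, with a median of 1.15, and leaving out any 1 library gave 6 to 10. H2-Ob and H2-Oa encode the chains of H2-O, which limits peptide loading. H2-Ob (chr17:34238903-34254414) rose from 12.1, 14.1 and 11.3 CPM to 152, 82.8 and 72.6 CPM (log2 change 3.03, SE 0.52, edgeR adjusted p = 0.000703) and H2-Oa from 10.7, 9.61 and 10.2 CPM to 39.9, 27.7 and 25 CPM (log2 change 1.60, SE 0.23, edgeR adjusted p = 0.000274). H2-DMa, of the loading catalyst, rose from 67.6, 82.5 and 69.4 CPM to 256, 190.4 and 181 CPM (log2 change 1.51, SE 0.19, edgeR adjusted p = 0.000166). In all 3 genes the 72 h libraries were above every 24 h library, with library 1 the highest. The master regulator Ciita and the invariant chain Cd74 were not called (1.14, adjusted p = 0.054, and 1.25, adjusted p = 0.0567), though both were without 72 h library 2 (adjusted p = 0.0165 and 0.0440). Of 13 dendritic cell genes 7 were called higher and 0 lower. Irf8, encoding a factor required by dendritic cells and monocytes, rose from 147, 300.2 and 111 CPM to 544, 423 and 719.8 CPM (log2 change 1.60, SE 0.36, edgeR adjusted p = 0.00442). Tcf4, encoding a factor of plasmacytoid dendritic cells, rose from 49, 72.4 and 56.1 CPM to 144, 133 and 148 CPM (log2 change 1.26, SE 0.18, edgeR adjusted p = 0.000265). The H2 genes are similar in sequence, so reads may be split between them. Macrophage markers, which can also carry MHC class II, summed to 105 to 126 CPM at 24 h and 244 to 401 CPM at 72 h (353 to 2465 CPM with PBS). Of 10, 2 were called higher, Csf1r and Cd163, and none was at 0. Csf1r, whose levels are given below, made up most of each LPS sum. C1qb was at 4.73, 2.27 and 3.83 CPM and then 1.01, 2.53 and 0.585 CPM, and Vcam1 overlapped between the times. A list of 24 monocyte and macrophage genes had a median of -0.12, with 3 called higher and 1 lower. Their part in these changes was not tested.

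The receptor for IL-10 was among the greatest increases. Il10ra encodes its ligand-binding chain (chr9:45253837-45269149). It was at 11.2, 22.2 and 14.1 CPM at 24 h, 84.5, 78.3 and 87 CPM at 72 h and 55.6 ± 14.8 CPM (SD, n = 5) with PBS (log2 change 2.39, SE 0.37, edgeR adjusted p = 0.000429). All 72 h libraries lay far above every 24 h library and, by a narrow margin for library 2, above every PBS library. Il10rb, the shared chain, was at 42, 42.2 and 39.3 CPM and then at 90.3, 93.8 and 91.7 CPM (log2 change 1.16, SE 0.23, edgeR adjusted p = 0.0021), with little spread at either time. In the list of 14 IL-10 receptor and STAT3 genes 6 were called higher and 0 lower, and 3 were higher without 24 h library 1 or 72 h library 3. Stat3 itself was at 151, 148 and 168 CPM and 161, 152 and 157 CPM, and Socs3, a feedback inhibitor induced by STAT3, was at 8.34, 9.06 and 19.3 CPM and 12.2, 10.7 and 6.58 CPM. Neither was called (0.01, SE 0.18, and -0.32, SE 0.40).

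Other cytokine receptors moved in both directions. Of 26, 9 were called higher and 2, Epor and Il1rl1, lower. The count was 7 higher without 24 h library 1 or 72 h library 3 and 6 higher without 24 h library 3, and those 2 genes were called lower in none of the leave-one-out fits but that without 24 h library 2. Csf1r, encoding the receptor of macrophage colony-stimulating factor, rose from 61.6, 88.5 and 76 CPM to 178, 179 and 328 CPM (log2 change 1.60, SE 0.30, edgeR adjusted p = 0.00142). Il18r1, of the interleukin-18 receptor, rose from 2.78, 3.78 and 4.08 CPM to 12.1, 11 and 10.7 CPM (log2 change 1.66, SE 0.22, edgeR adjusted p = 0.000192). The list of 22 genes for LPS sensing through TLR4 had 6 called higher and 3 lower, and 3 higher and 2 lower without 24 h library 1 or 24 h library 3. Tlr4 was at 13.7, 14.4 and 13.7 CPM and 10.1, 13.2 and 14.6 CPM and did not pass (log2 change -0.14, SE 0.31, edgeR adjusted p = 0.755). Its adaptor gene Myd88 fell from 124, 78.1 and 99.6 CPM to 50.8, 56.5 and 54.7 CPM (log2 change -0.90, SE 0.18, edgeR adjusted p = 0.00232), and the relative Tlr6 rose from 4.45, 3.98 and 3.7 CPM to 7.24, 8.11 and 11.4 CPM (log2 change 1.14, SE 0.25, edgeR adjusted p = 0.00357).

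Inflammatory genes were also split. Of 25 NF-kB and inflammatory genes 8 were called higher and 2 lower, and 5 higher and 1 lower without 24 h library 1. Ccl3, encoding the chemokine MIP-1 alpha, rose from 3.06, 3.43 and 4.91 CPM to 51.3, 30.2 and 14.6 CPM (log2 change 3.06, SE 0.55, edgeR adjusted p = 0.001). Rel, encoding an NF-kB subunit of lymphoid cells, rose from 18.4, 33.9 and 21.8 CPM to 48.9, 51.5 and 72.6 CPM (log2 change 1.22, SE 0.23, edgeR adjusted p = 0.00122), and Nfkbie, encoding an NF-kB inhibitor, changed by 1.17 (SE 0.24). Ccl9 (chr11:83572919-83578636), a chemokine gene of the myeloid lineage, stood out against PBS. It was at 76.8, 81.7 and 66.6 CPM at 24 h, 304, 559 and 329.6 CPM at 72 h and 114 ± 23.9 CPM (SD, n = 5) with PBS (log2 change 2.41, SE 0.51, edgeR adjusted p = 0.0029). The lowest 72 h library was thus above all PBS libraries and the 24 h libraries below them.

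Interferon genes had few calls, and their number depended on the fit. Of 33 type I interferon effectors 32 were not called and 1 was lower, with a median of -0.72. In a fit of the 6 libraries alone 17 were lower, and 13 with voom. Relative to PBS, the mean log2 level of the effectors was 0.20, -0.04 and 0.58 at 24 h. At 72 h it was -0.31, -0.73 and -0.80. The antibody libraries, which enter the shared estimate of spread, ranged more widely, from -1.31 to 1.74 at 24 h and from -1.16 to 1.94 at 72 h. Their part in the missing interferon calls was not tested. The called gene, Oas1a, which senses double-stranded RNA, fell from 123, 64.3 and 90.8 CPM to 39.8, 33.6 and 26.5 CPM (log2 change -1.47, SE 0.37, edgeR adjusted p = 0.00775). Irf7, the factor that amplifies the response, was at 106, 61.5 and 164 CPM and then at 35.1, 16.6 and 17.9 CPM, and its groups did not overlap (log2 change -2.25, SE 1.17, edgeR adjusted p = 0.153). The fit of the 6 libraries alone called Irf7 lower (edgeR adjusted p = 0.00706). Irf1, which relays interferon signals, was not called, at 0.70, but was called higher in the fit of the 6 libraries (edgeR adjusted p = 0.0139). Of 17 interferon-gamma GTPases and Irf1, 0 were called by edgeR, voom or DESeq2, with 0 at an unadjusted p below 0.05 by edgeR. A fit of the 6 libraries alone called 3 higher and 1 lower. Ifitm3, of the family that blocks virus entry, was at 803, 359 and 628 CPM and then at 192, 185 and 148 CPM (log2 change -1.77, SE 0.52, edgeR adjusted p = 0.018). It was not called without 24 h library 1 (adjusted p = 0.0711) or without 72 h library 3 (0.0593), and the Ifitm genes are alike enough to share reads. The metallothionein gene Mt1 was not called, at 194, 60.5 and 69.7 CPM and 29.5, 72.5 and 27.2 CPM. Without 24 h library 2 or without 72 h library 2 it was called lower (adjusted p = 0.0426 and 0.0273).

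Erythroid transcripts had the lowest median, -3.13 over 26 genes, but only 3 were called lower and 0 higher. The number was 0 without 24 h library 1, 24 h library 3, 72 h library 2 or 72 h library 3, 9 with DESeq2 and 18 in a fit of the 6 libraries alone. The summed level of 10 erythroid markers was 691, 364 and 822 CPM at 24 h and 121, 32.3 and 2.48 CPM at 72 h, against 187 to 389 CPM with PBS, and none was at 0 in a group. Klf1, encoding the erythroid master factor, was at 41.6, 20.4 and 42 CPM and then at 8.43, 2.2 and 0.366 CPM (log2 change -3.27, SE 1.30, edgeR adjusted p = 0.0668). Gata1, encoding the factor of erythroid and megakaryocyte cells, was at 65, 31.4 and 53.8 CPM and then at 18.1, 8.96 and 1.32 CPM (log2 change -2.42, SE 1.05, edgeR adjusted p = 0.0928). Both were lower in every 72 h library than in any 24 h library, with the 72 h libraries widely spread, and neither was called. In the fit of the 6 libraries alone both were called lower (edgeR adjusted p = 0.0175 for Klf1 and 0.0335 for Gata1). Of 22 iron and heme genes 8 were called lower and 0 higher. Tfrc, encoding the transferrin receptor that imports iron, was at 399, 233 and 651 CPM at 24 h and 94.8, 86.7 and 102 CPM at 72 h (log2 change -2.18, SE 0.48, edgeR adjusted p = 0.00341). Its 72 h libraries did not share the wide spread of the erythroid markers. Slc11a2, encoding an iron transporter, fell from 53.2, 38 and 65.1 CPM to 19, 16.1 and 16.1 CPM (log2 change -1.61, SE 0.34, edgeR adjusted p = 0.00288). The part of erythroid cells in the iron and heme changes was not tested.

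Neutrophil and platelet genes gave few calls. Other genes of myeloid cells were called higher, among them Csf1r, Irf8 and Ccl9, given above, and Cd33, at 2.48. Neutrophil markers summed to 6573 to 12306 CPM at 24 h and 5115 to 10739 CPM at 72 h, and of 22 tested genes of that lineage 1 was called. That gene, Cebpa, lost its call without 5 of the 6 libraries in turn, all but 24 h library 2 (adjusted p = 0.0527 to 0.131). Mpo, encoding myeloperoxidase of granulocyte progenitors, was at 9987, 5645 and 7088 CPM and 4546, 8532 and 9234 CPM (log2 change -0.03, SE 0.56, edgeR adjusted p = 0.977). Megakaryocyte markers summed to 108 to 224 CPM and then 29.8 to 105 CPM, which did not overlap. Itga2b made up most of each sum, at 130, 96.2 and 209 CPM and then 73.6, 51.8 and 21.4 CPM, and was not called. Pf4, Gp9 and Ppbp were above every 24 h library in 72 h libraries 1 and 2 and below every one in library 3. Gp1bb overlapped between the times. Of 20 megakaryocyte and platelet genes 0 were called by edgeR or DESeq2, with 2 at an unadjusted p below 0.05 by edgeR, and 2 by voom. Endothelial and stromal markers summed to 3.06 to 7.08 CPM and then 5.77 to 20.1 CPM. Lepr was at 0 at both times and Cxcl12 at 72 h, whereas Emcn, shared by vessels and stem cells, rose from 1.85, 2.13 and 2.17 CPM to 17.4, 11.6 and 4.46 CPM (log2 change 2.43, SE 0.58, edgeR adjusted p = 0.00547).

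The position of the 72 h libraries was then read against PBS. Among the 4646 called genes the 24 h mean lay within the range of the 5 PBS libraries for 215 (4.63%) and the 72 h mean for 2789 (60.0%). Over all genes tested those shares were 30.0% and 59.7%. In a direct comparison of LPS at 72 h with PBS 3 genes passed, or 1702 before adjustment of the p-values, and LPS at 24 h against PBS called 5616. These comparisons share libraries with the main one. Median changes of a list, 24 h against PBS and 72 h against PBS, were 0.92 and -0.27 for ribosome biogenesis, 0.89 and -0.20 for transfer RNA synthetases, -1.74 and -0.11 for lymphoid priming, -1.16 and -0.36 for self-renewal and -0.88 and 0.30 for MHC class II. For 677 called genes (14.6%) all 72 h libraries lay past every PBS library in the direction of the change from 24 h, against 9.76% of all genes tested. The 24 h libraries of these genes did not have to lie on the other side of PBS. Ms4a6c, for example, had means of 154 CPM at 24 h, 113 CPM with PBS and 289 CPM at 72 h. The calls rest on the same 24 h and 72 h values, so the choice of called genes by itself favours shares unlike those over all genes. Of the 677 genes, Ccl9 was among those that rose, and Spire1 and Septin8 among those that fell.

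The same interval was compared with and without blockade of IL-10R to ask whether the change between the times needs the receptor. With the antibody, 0 of 14920 genes were called between 24 h and 72 h by edgeR, with 635 at an unadjusted p below 0.05, 0 calls by voom with sample quality weights and 2 by DESeq2. Without the antibody it was 4646, and the difference between the changes was itself called for 947 genes (6.35%). Of these, 601 were positive (less decrease or more increase with antibody) and 346 negative, 63.5% positive against 49.7% of 875 with upper-quartile scaling. In the antibody groups the libraries numbered 1 resembled each other across time, as did those numbered 3. The deviations from the group mean of library 1 at 24 h and library 1 at 72 h correlated at 0.72 across genes, those of library 3 at 0.70 and those of library 2 at -0.02. Genes are not independent replicates, and without the antibody the values were 0.05 for library 1, -0.29 for library 2 and 0.06 for library 3. Summed erythroid markers in the antibody libraries 1, 2 and 3 were 2028, 442 and 15.3 CPM at 24 h and 1286, 163 and 7.63 CPM at 72 h. The mean log2 level of type I interferon effectors in these libraries, relative to PBS, was 1.74, 0.09 and -1.31 at 24 h. At 72 h it was 1.94, -0.14 and -1.16. The part of either gene set in the missing calls was not tested.

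**Figure D5:**
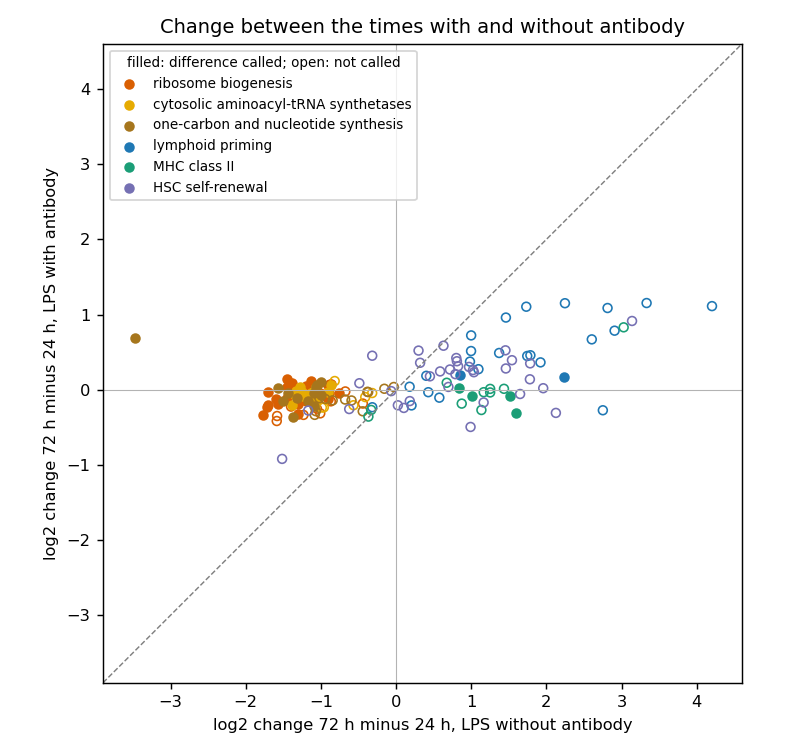
Log2 change between 24 h and 72 h without antibody (horizontal axis) and with antibody (vertical axis) for members of 6 gene lists, filled where the difference between the changes was called. Ribosome biogenesis genes lie to the left at about 0 on the vertical axis (median -1.19 without and -0.09 with antibody), off the dashed line of equal change.

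Biosynthesis genes fell without the antibody and gave no calls with it. For ribosome biogenesis the difference was called positive in 30 of 40 genes and negative in 0, with a median change over time of -0.09 with antibody. Ncl was at 2489, 3324 and 2485 CPM at 24 h and 3229, 2919 and 3005 CPM at 72 h with antibody (difference 1.59, SE 0.23, edgeR adjusted p = 0.00831). All 72 h libraries with antibody were far above the 72 h libraries without it. Psmd1, a proteasome subunit gene, was at 331, 340.2 and 327 CPM and then 137, 159 and 159 CPM without antibody, and at 269, 294 and 317 CPM and then 324, 272 and 295 CPM with it (difference 1.15, SE 0.17, edgeR adjusted p = 0.00831). Gmps was at 183, 207 and 189.6 CPM and then 199, 204 and 203 CPM with antibody (difference 1.12, SE 0.17, edgeR adjusted p = 0.00831). In both genes each 72 h library with antibody lay within or above the range of the 24 h libraries with it. The difference was called positive for 14 of 20 transfer RNA synthetases, 13 of 25 one-carbon and nucleotide genes and 11 of 31 ATF4 and amino acid genes, and negative for 0 in each.

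In the other direction, the genes of smallest p were Mirt1, Lat2 and Gsn. Mirt1 (chr19:53443230-53464796), a long non-coding RNA, was at 3.8, 5.15 and 4.97 CPM and then 33.4, 28.9 and 39.7 CPM without antibody and at 8.05, 5.7 and 8.37 CPM and then 6.48, 8.88 and 7.85 CPM with it (difference -2.80, SE 0.28, edgeR adjusted p = 0.000637). Lat2, encoding an adaptor of immune receptors, was at 50.9, 51 and 49 CPM and then 142, 128 and 100.1 CPM without antibody and at 56.1, 56.3 and 66.3 CPM and then 41.5, 51.2 and 55.2 CPM with it (difference -1.57, SE 0.21, edgeR adjusted p = 0.00831). Gsn, encoding the actin-severing protein gelsolin, was at 15.7, 22.3 and 14.7 CPM and then 90.0, 65.7 and 71.1 CPM without antibody and at 29.9, 19.7 and 22.8 CPM and then 15.7, 23.8 and 25.1 CPM with it (difference -2.27, SE 0.33, edgeR adjusted p = 0.00831). In these 3 genes the highest libraries were the 72 h libraries without antibody. The difference was called negative for 4 of 14 MHC class II genes, among them H2-Oa (difference -1.91, SE 0.32, edgeR adjusted p = 0.00831), and for Il10ra (difference -2.12, SE 0.51, edgeR adjusted p = 0.0258) and Il10rb (difference -1.18, SE 0.33, edgeR adjusted p = 0.0452). Il10ra was at 47.5, 17.6 and 35 CPM and then 59.9, 27.6 and 32.8 CPM with antibody. Dntt, Flt3 and Mecom changed over time by 1.11, 0.67 and 0.35 with antibody, and their differences were not called (adjusted p = 0.157, 0.0796 and 0.208).

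The number of these differences depended on single libraries. It was 231 without LPS 72 h library 1, 473 without 72 h library 2 and 576 without 24 h library 3. Of the antibody libraries, it was 376, 1544 and 291 without 24 h library 1, 2 or 3 and 513 without 72 h library 3. Without both libraries numbered 1 at 24 h, a choice made after seeing the data, it was 127. Over the fits that each left out 1 of the 12 libraries, the positive ribosome biogenesis genes numbered 15 to 32, the synthetases 6 to 15, the one-carbon and nucleotide genes 4 to 18 and the ATF4 and amino acid genes 4 to 12, with 0 negative. The negative MHC class II genes numbered 2 to 4. The lowest counts came without antibody 24 h library 3 for ribosome biogenesis and without LPS 72 h library 1 for the one-carbon and nucleotide genes. Without both libraries numbered 1 at 24 h the positive counts were 6, 5, 3 and 3. Ncl, Psmd1, Gmps, Mirt1, Lat2 and Gsn were called under each alternative run, those fits included.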

How the data were processed

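Bulk polyadenylated RNA-seq of sorted HSPC from 17 libraries was used, grouped by sample title. The authors deposited raw counts per gene (35321 genes, 13321 of them at 0 throughout). The submitters' processing notes name HISAT2 2.2.0, Subread, featureCounts 2.1.1, R 4.3.2, DESeq2 and the build GRCm38. Strand setting and multimapping rules are not given in the sources used here. Genes were kept by edgeR's filterByExpr (minimum count 10, total 15), which left 14920 with 99.9% of counts. Totals and detected genes per library set the precision.

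All libraries entered 1 edgeR 4.0.16 quasi-likelihood fit with TMM factors and group means (R 4.3.3), and p-values were adjusted by Benjamini-Hochberg over all genes tested, with calls below 0.05. CPM values are TMM-scaled. The SE is the log2 change divided by the square root of F. Alternatives were RLE and upper-quartile factors, no filter, the upper 50% of genes by mean, DESeq2 1.42.0, limma 3.58.1 voom with sample quality weights, the compared libraries alone without and with a replicate block, and leaving out each library. Same-numbered LPS libraries did not deviate together across the times, so the numbers were not taken as pairs.

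The compared groups and the gene lists were chosen with earlier results of these data known. Named were the 15 greatest increases and 15 greatest decreases among called, non-overlapping genes of at least median expression, up to 4 called members of smallest p and fixed key members of each list, exceptions within a list, and the 3 interaction genes of smallest p in each direction. Aldh1l2, Chac1 and Slc7a11 were chosen after their values were seen. Promoters came from RefSeq (GRCm38.p6) and gene positions from GENCODE vM21.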

Additional observations from a re-analysis of the deposited data

Results flagged for a closer look

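In 3 of the named genes 1 PBS library lay far from the other 4. Asns, of asparagine synthesis, was at 18.4 CPM in PBS library 2, below the others. Ly6d, a marker of lymphoid progenitors, was at 112 CPM in PBS library 2, and Myl10, encoding a myosin light chain, was at 251.5 CPM in PBS library 1. Chance marks about 1 in 20 groups in this way, and PBS libraries do not enter the change between 24 h and 72 h except through the shared estimate of spread. PBS library 2 also stood apart in genes not flagged here. Its macrophage markers summed to 2465 CPM, against 353 to 1010 CPM in the other PBS libraries. The neutrophil granule gene Ltf was at 138.5 CPM in it, against 1.57 to 8.37 CPM. It thus widens the PBS ranges of such genes.

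The change between the times differed with the antibody for 947 genes by edgeR's test of the interaction. Among the 15 named decreases, the difference (log2 change with antibody minus without) was 2.12 for Asns, 1.88 for Odc1, 1.68 for Srm, 1.87 for Hspd1, 1.79 for Ndufaf4, 1.81 for Slc16a1, 1.62 for Ldha and 1.57 for Ppa1. Thus these polyamine, chaperonin, lactate and asparagine genes were less decreased with the antibody. Among the 15 named increases the difference was -2.46 for Ypel3, -2.12 for Il10ra, -1.95 for Cnn3 and -2.68 for Ahnak. Not all of the 15 in either direction are listed. The 15 were chosen for a large change without antibody, which is subtracted in the difference. That choice by itself favours positive differences among the decreases and negative ones among the increases. The genes of smallest p had differences of 1.59 for Ncl, 1.15 for Psmd1, 1.12 for Gmps, -2.80 for Mirt1, -1.57 for Lat2 and -2.27 for Gsn, and all 6 passed the test in every alternative run.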

How the results depend on the processing

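Of 185 named genes, 164 were called between the times, and 114 of these were called in each of the 14 alternative fits that tested them. Some of the genes, such as Aldoc and Il7r, were tested in only 13. Calls were lost in at least 1 fit for 50, and 11 of the 21 genes not called gained a call in at least 1. No called gene changed direction. The number of calls between the times was 4131 with no filter, 5142 with DESeq2, 6955 with voom and 3793 in a fit of the 6 libraries alone. It was 2884 among the upper 50% of genes by mean expression and 1984 with a log2 change of at least 1, both by construction smaller. Leaving out 1 library gave 3199 to 4507.

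Same-numbered LPS libraries did not deviate together (correlations of 0.05, -0.29 and 0.06), so the numbers were not taken as pairs. With 3 libraries a group such values cannot exclude a pairing, and in the antibody groups they were 0.72, -0.02 and 0.70. With the replicate block 3404 genes were called between the times. For the interaction, the number was 286 in a fit of the 12 libraries alone without a block, 44 with the replicate block and 776 with the block in the antibody groups only, a fit chosen after seeing the data. With the replicate block in all 12 libraries, positive differences were called for 3 of 40 ribosome biogenesis genes, 2 of 20 synthetases, 2 of 25 one-carbon and nucleotide genes and 1 of 31 ATF4 and amino acid genes, and 17, 6, 7 and 6 without a block. The interaction number was 617 with no filter, 1709 with DESeq2 and 1585 with voom, and 231 to 1544 with 1 library left out. It was 127 without both libraries numbered 1 at 24 h. The cause was not tested. With the antibody, edgeR called 0 genes between the times, DESeq2 2 and the replicate block 0 (1364 unadjusted).

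The 3 libraries a group and the unusual 24 h library 1 limit these counts, and genes at a few CPM have wide errors.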

Other observations

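Some gene lists were called at a share near or below that of all genes tested (31.1%). Of 18 p53 targets 2 were called higher and 3 lower, the same numbers whichever library was left out. Of 16 BCL2 family genes 1 was called higher and 2 lower, of 24 cholesterol synthesis genes 3 higher and 2 lower, and of 21 glucocorticoid-responsive and clock genes 3 higher and 3 lower. Of 14 genes of MHC class I presentation 1 was called higher and 0 lower. Of 24 monocyte and macrophage genes 3 were called higher and 1 lower.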
